A study of Homo sapiens with 38 samples.

Results

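The genes described here are 41 interferon-stimulated genes, a list of well-known targets of interferon signalling given by symbol. Of these, 39 were found in the table of 12627 genes after its RefSeq identifiers were matched to current symbols, and IFITM1 and OAS2 were not. They were followed in HCT116, a human colorectal cancer cell line of epithelial origin, by Ion AmpliSeq RNA sequencing, in which 1 amplicon per transcript is amplified and its reads are counted. The cells were depleted of VPS4A, VPS4B or both. These paralogous ATPases recycle the ESCRT-III membrane-remodelling complex, and the question was how transcription differs when a single paralog or both are missing.

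There were 9 conditions, all collected 72 h after transfection with Lipofectamine RNAiMAX except for the NT cells, which received no siRNA. The non-targeting control siCTRL#1 was given at 60 nM. Each single depletion (siVPS4A#1, siVPS4A#2, siVPS4B#1, siVPS4B#2) combined 30 nM of the on-target duplex with 30 nM of siCTRL#1. Each double depletion combined 30 nM of 2 on-target duplexes, siVPS4A#2 with siVPS4B#1 in siVPS4A+B#1 and siVPS4A#1 with siVPS4B#2 in siVPS4A+B#2, so these cells held no siCTRL#1. A further control, siCTRL#2, is a different non-targeting duplex, whose exact dose in these libraries is not given in the sources used here. Each condition had 4 libraries, apart from siCTRL#1 with 5 and siVPS4A#1 with 5, of which 4 were used. The library siVPS4A#1 replicate 2 was left out by the rule that defines the set, since it held 669257 reads against 5090666 to 11035293 (median 7561496) in the other 37. Replicates with the same number share a batch letter in the labels, and the study describes its sequencing replicates as independent experiments in the same cell line.

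Interferons are secreted proteins that cells release on sensing viral nucleic acid. Type I and type III interferons activate the kinases JAK1 and TYK2, which act on transcription factors such as STAT2. The factor ISGF3, which contains STAT2 and IRF9, binds interferon-stimulated response elements (ISRE) in promoters, while type II interferon acts through gamma-activated sites (GAS). Several of the genes induced in this way, among them the sensors and transcription factors of the pathway itself, feed back on it.

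In the series as a whole the depletions matched their labels. VPS4A averaged 190 TMM-scaled reads per 1000000 (RPM) with siCTRL#1 and 2.19 to 19.96 RPM in the 4 conditions with a VPS4A duplex. VPS4B averaged 22.2 RPM in NT cells and 0.433 to 1.29 RPM in the 4 conditions with a VPS4B duplex. All 7 epithelial markers were in the table, whereas of 14 markers of leukocytes, fibroblasts and endothelium only 6 were. CSF1R, PDGFRB, PECAM1 and KDR averaged at most 1.41 RPM in any condition. CD68, a lysosomal protein used as a macrophage marker, averaged 8.33 RPM with siCTRL#1, 136 RPM with siVPS4A+B#1 and 57.7 RPM with siVPS4A+B#2, and COL1A1 averaged 26.0 RPM with siCTRL#1 and 62.6 RPM with siVPS4A+B#2. Their part in the results below was not tested. In bulk RNA, fewer cells with a transcript and less of it per cell cannot be told apart, and levels of different genes are not compared because each rests on its own amplicon.

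The promoters of the members were read from RefSeq sequence of the build GRCh38.p14, where 32 of the 39 members had an entry (all but DHX58, IFIT2, IFITM2, IRF7, OASL, PML and USP18). The core of the ISRE, taken as GAAA, any 2 bases and GAAA again and searched on both strands in the 250 bases before the start site, was found in 15 of the 32 (46.9%), against 839 of all 27305 promoters (3.07%). The GAS letters, TTCNNNGAA, were found in 8 of the 32 (25.0%), against 1850 of 27305 (6.78%). Among the 22 members higher with siVPS4A+B#2 than with siCTRL#1, described below, 18 had a promoter entry and 10 of these held the ISRE core, and among the other 17 members 5 of 14 did. The stretches below were taken from the members that held the ISRE core. Among other members described below, RIGI, IRF9, SP100, STAT2 and PSMB9 had a promoter entry without the ISRE core in this window. They are printed 5′ to 3′ on the strand of the gene, with the ISRE core letters of either strand in capitals. For ISG15 and BST2 a pair of matches overlap. A match is a stretch of letters and not a measured binding site.
ISG15, chr1:1013360-1013429, plus strand: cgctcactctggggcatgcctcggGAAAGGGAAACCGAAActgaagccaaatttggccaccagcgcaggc
IFIT1, chr10:89392490-89392559, plus strand: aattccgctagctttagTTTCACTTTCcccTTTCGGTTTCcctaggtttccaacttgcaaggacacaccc
IFIT5, chr10:89414519-89414567, plus strand: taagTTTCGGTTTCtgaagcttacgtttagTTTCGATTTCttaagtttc
OAS3, chr12:112938432-112938473, plus strand: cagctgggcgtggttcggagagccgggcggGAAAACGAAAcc
IFI6, chr1:27672246-27672315, minus strand: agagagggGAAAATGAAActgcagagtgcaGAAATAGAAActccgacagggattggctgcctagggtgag
IFI27, chr14:94110611-94110680, plus strand: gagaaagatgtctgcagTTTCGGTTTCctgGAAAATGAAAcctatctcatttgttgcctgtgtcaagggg
BST2, chr19:17405715-17405784, minus strand: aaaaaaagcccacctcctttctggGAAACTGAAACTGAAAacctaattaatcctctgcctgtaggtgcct

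As a set, the interferon-stimulated genes stood highest with siVPS4A+B#2. On the scale log2(RPM + 1), the mean of the 39 members relative to NT was 0.97 ± 0.2 (SD, n = 4) there. It was 0.34 ± 0.19 with siVPS4A+B#1, the other double depletion. Among single depletions it was 0.56 ± 0.09 with siVPS4A#1, 0.46 ± 0.09 with siVPS4B#1, 0.49 ± 0.23 with siVPS4B#2 and 0.10 ± 0.05 with siVPS4A#2 (n = 4 each). The controls lay lower, at 0.19 ± 0.01 with siCTRL#1 (n = 5) and −0.07 ± 0.11 with siCTRL#2 (n = 4), while NT replicates had an SD of 0.05. The same mean over all genes stayed between −0.03 and 0.01 in every condition. Only the siVPS4A#2 libraries, at 0.03 to 0.15, lay wholly below the siCTRL#1 libraries at 0.17 to 0.21 among the conditions with an on-target duplex, and the siVPS4A+B#1 libraries, at 0.11 to 0.56, were the ones that overlapped them.

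**Figure D1:**
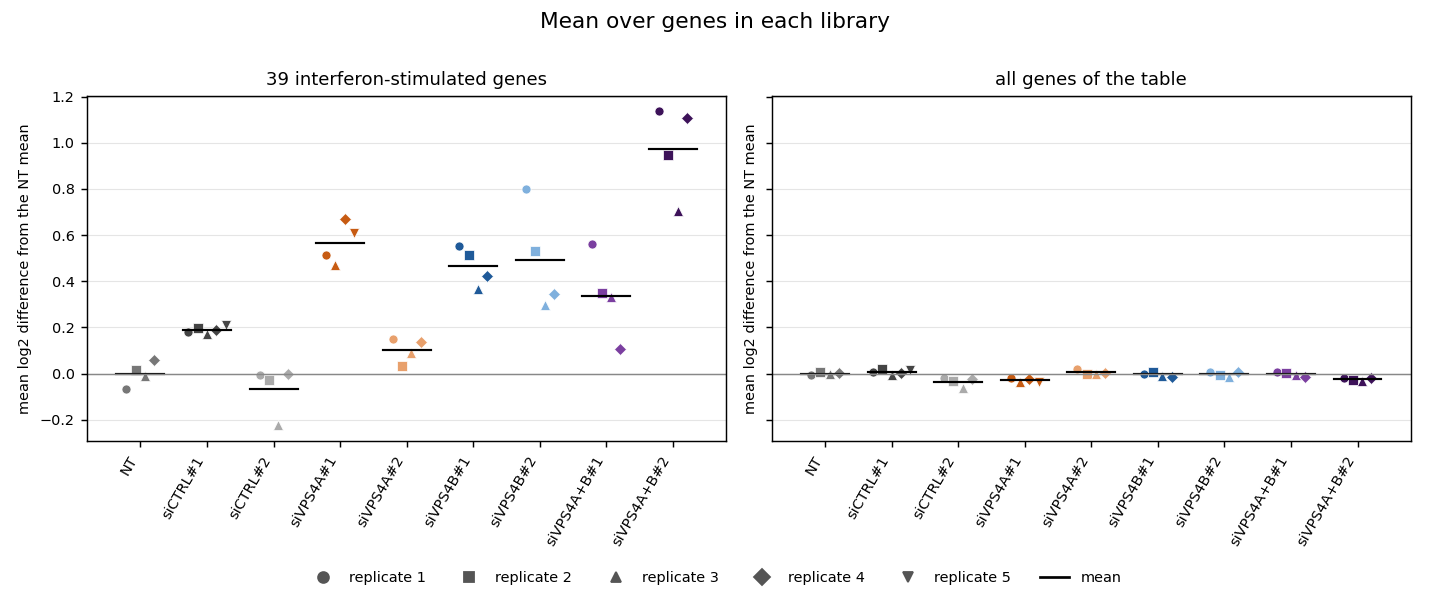
Mean over genes in each library on the log2(RPM + 1) scale relative to the NT mean, for the 39 members and for all genes of the table, with the 9 conditions along the horizontal axis, 1 point per library and a bar at the condition mean. The 4 siVPS4A+B#2 libraries sit between 0.71 and 1.14 for the members, while the all-gene means of the conditions stay between −0.03 and 0.01.

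Members were called from a limma fit over all 12627 genes, with the replicate number as a block, where they changed by 1.5-fold or more with Benjamini-Hochberg adjustment at 0.05. Fold changes are on the log2(RPM + 1) scale, which understates changes of low genes. Against siCTRL#1, 22 of the 39 members were higher with siVPS4A+B#2, where 12.8% of all genes were, and 2 were lower (15.9% of all genes), 24 in all against 28.7% of all genes. With siVPS4A+B#1, 10 were higher (10.6% of all genes) and 5 lower (11.5%). With siVPS4A#1, 13 were higher (9.57%) and 2 lower (12.5%). The siVPS4B duplexes gave 9 higher (5.61%) and 1 lower (7.33%) with siVPS4B#1, and 7 higher (3.01%) and none lower (4.56%) with siVPS4B#2. The median log2 fold change of the members was 0.80 with siVPS4A+B#2, 0.32 with siVPS4A#1, 0.22 with each siVPS4B duplex and 0.11 with siVPS4A+B#1, and that of all genes −0.02 to 0.01. All these comparisons share the siCTRL#1 libraries. With the shallow library siVPS4A#1 replicate 2 included, the calls with siVPS4A#1 of IFIT1, OAS1, OASL and PML were lost (adjusted p = 0.354, 0.222, 0.0659 and 0.0845, limma). Without siVPS4B#2 replicate 1 the 7 members with siVPS4B#2 were 4.

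With siVPS4A#2 no member was called against siCTRL#1 by limma, DESeq2 or edgeR, where 0.0871% of all genes were (0.0396% higher and 0.0475% lower), and 2 members had an unadjusted p under 0.05, both lower. The median log2 fold change of the members there was −0.09. Both siVPS4A duplexes removed most VPS4A transcript, to 2.19 RPM with siVPS4A#1 and 7.88 RPM with siVPS4A#2.

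Against NT, which shares no library with siCTRL#1, the counts were 24 higher with siVPS4A+B#2 and none lower (13.2% of all genes higher, 28.8% in either direction) and 11 higher and 1 lower with siVPS4A+B#1 (12.6% and 13.3%). With siVPS4A#1, 15 were higher and 1 lower (11.6% and 13.4%), and with siVPS4A#2, 3 were higher (4.32%; 8.15% of all genes were called in either direction), namely ISG15, IFIT1 and IFI35. Of these, ISG15 (1.52-fold, adjusted p = 0.0252, limma) was lost without NT replicate 1 (adjusted p = 0.121) or any of siVPS4A#2 replicates 2, 3 and 4, and without siVPS4A#2 replicate 1 the 3 were 5. Each of siVPS4B#1 and siVPS4B#2 gave 13 higher members (10.8% and 7.63% of all genes) and none lower (11.6% and 7.9%). Within each of the 4 batches that hold both conditions, all 24 members called with siVPS4A+B#2 against siCTRL#1 kept their direction. The same held for 13 of the 15 with siVPS4A#1, 10 of 10 with siVPS4B#1, 6 of 7 with siVPS4B#2 and 11 of 15 with siVPS4A+B#1. These members had been called from the same libraries with the batch as a block. Their agreement within batches is therefore a description and no separate support for the calls.

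**Figure D2:**
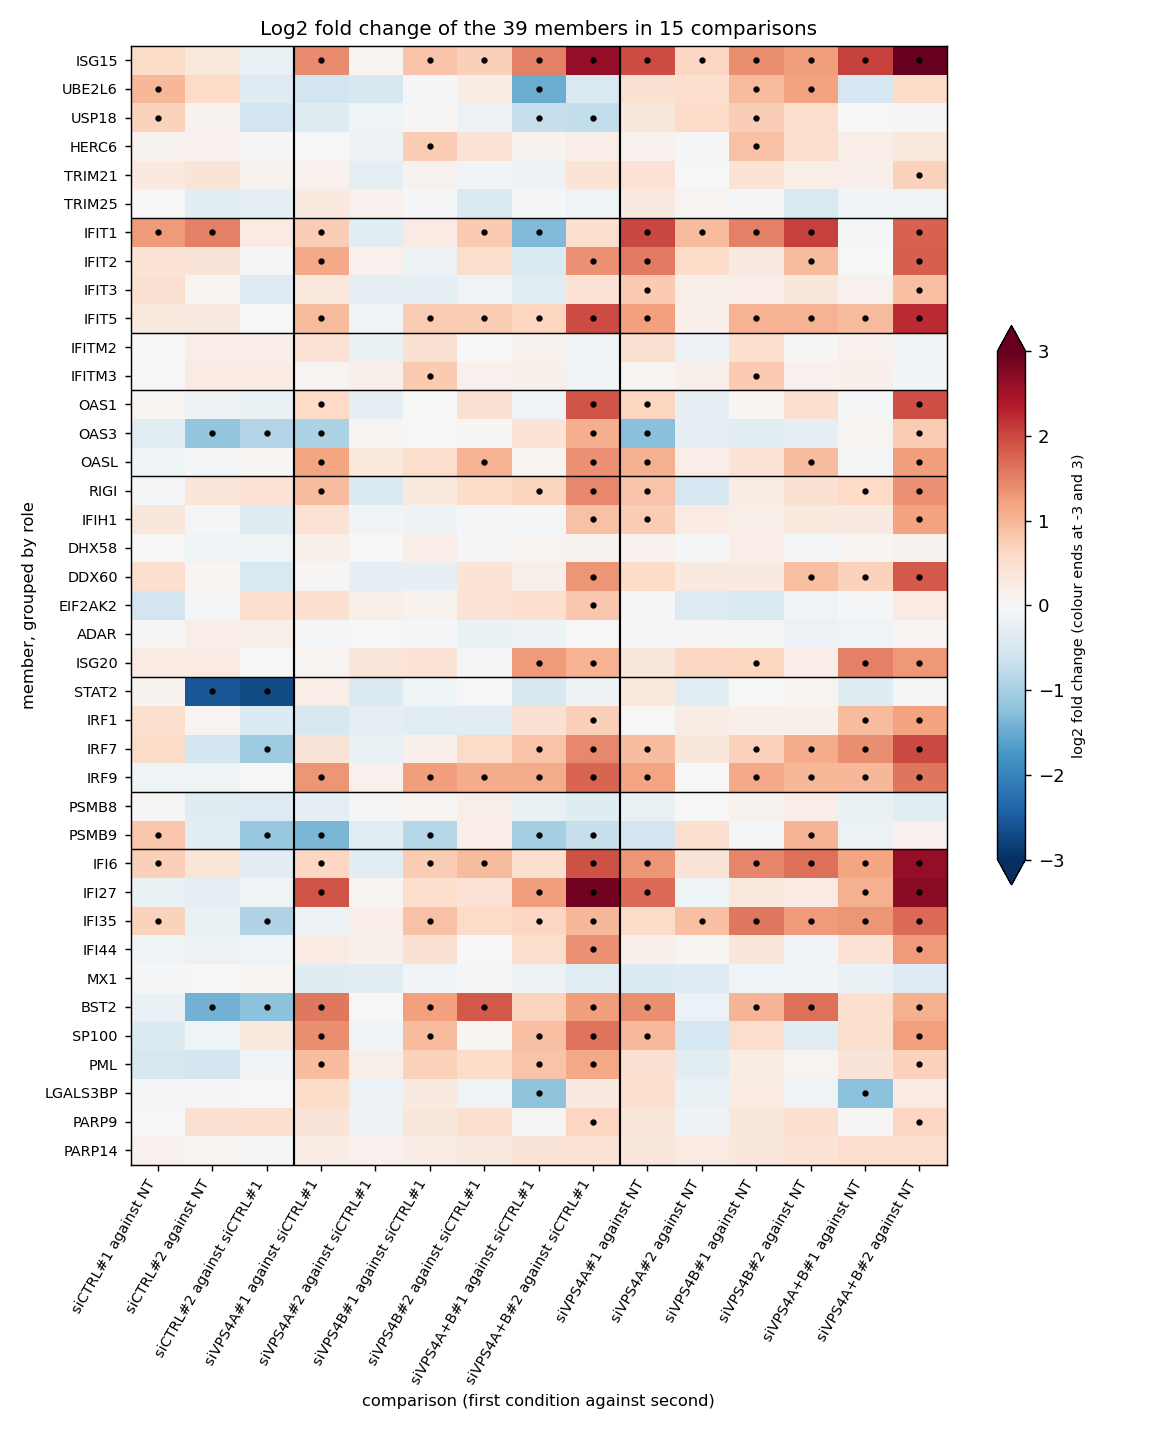
Map of the log2 fold change of the 39 members (rows, grouped by role) in 15 comparisons (columns, the first condition against the second), with the colour scale in log2 units and called changes marked. The siVPS4A+B#2 columns hold 22 higher calls against siCTRL#1 and 24 against NT, and the column of siVPS4A#2 against siCTRL#1 holds none.

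The controls themselves differed in part of the set. Transfection with siCTRL#1 raised 6 members over NT and lowered none (4.84% of all genes were higher, 4.21% lower and 9.05% either), namely UBE2L6, USP18, IFIT1, PSMB9, IFI6 and IFI35. All 6, called from these same libraries, kept their direction within each of the 4 shared batches. The call for UBE2L6 (1.99-fold, adjusted p = 0.0183, limma) was lost without NT replicate 1 (adjusted p = 0.0965), NT replicate 3 (0.0612) or siCTRL#1 replicate 4 (0.0599). With siCTRL#2, IFIT1 was higher than NT (1 member, 6.07% of all genes) and OAS3, STAT2 and BST2 were lower (3 members, 10.5%). Against siCTRL#1, siCTRL#2 had 6 lower members (11% of all genes) and none higher (5.84%), the lower ones being OAS3, STAT2, IRF7, PSMB9, IFI35 and BST2. In either direction, 10.3% of the members were called with siCTRL#2 against NT (16.6% of all genes). Against siCTRL#1 the share was 15.4% (16.8% of all genes). For siCTRL#2 the members were thus called no more often than genes in general.

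STAT2, a subunit of ISGF3, gave the largest of the control differences. Its level was 9.95, 4.48, 5.03 and 4.29 RPM in the 4 siCTRL#2 libraries, against 28.9, 43.3, 38.1 and 45.4 RPM in NT and 40.2, 50.8, 33.2, 42.6 and 42.3 RPM with siCTRL#1. Every siCTRL#2 library lay far below all libraries of both other controls, with no overlap. STAT2 was 5.95-fold lower than in NT (log2 −2.57 ± 0.2 SE, adjusted p = 2.36e-13, limma) and 6.42-fold lower than with siCTRL#1 (−2.68 ± 0.19, adjusted p = 3.86e-14). In no comparison of a depletion with siCTRL#1 or NT was STAT2 called.

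ISG15 (NM_005101), a ubiquitin-like modifier that is conjugated to proteins during an antiviral response, was higher in 5 of the 6 depletions than with siCTRL#1. It stood at 79.9, 92.4, 95.3 and 91.1 RPM in NT, at 144, 90.7, 189, 130 and 96.1 RPM with siCTRL#1, and at 88.1, 139, 128 and 101 RPM with siCTRL#2. With siVPS4A+B#2 it reached 1008, 857, 766 and 667 RPM, and with siVPS4A+B#1 535, 348, 278 and 391 RPM. All 8 libraries of the double depletions lay above every control library, and those of the 2 pairs did not overlap each other. Single depletion gave 320, 367, 335 and 312 RPM with siVPS4A#1, 253, 220, 243 and 232 RPM with siVPS4B#1 and 325, 240, 187 and 145 RPM with siVPS4B#2. With siVPS4A#2 the libraries, at 117, 139, 149 and 144 RPM, fell within the range of siCTRL#1. The changes against siCTRL#1 were 6.2-fold with siVPS4A+B#2 (log2 2.63 ± 0.18 SE, adjusted p = 1.13e-14, limma), 2.87-fold with siVPS4A+B#1 (1.57e-08), 2.67-fold with siVPS4A#1 (3.8e-08), 1.81-fold with siVPS4B#1 (0.000564) and 1.64-fold with siVPS4B#2 (0.00786). The last of these rested on single libraries: it was 1.44-fold without siVPS4B#2 replicate 1 (adjusted p = 0.073) and 1.45-fold without siCTRL#1 replicate 2. Against NT the change with siVPS4A+B#2 was 9.02-fold (adjusted p = 6.02e-17).

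Among the genes grouped here with ISG15, UBE2L6 and USP18, whose products attach and remove it, were lower than siCTRL#1 with siVPS4A+B#1. USP18 was lower also with siVPS4A+B#2. By contrast, UBE2L6, USP18 and HERC6 were higher than NT with siVPS4B#1, and UBE2L6 also with siVPS4B#2. UBE2L6, the E2 conjugating enzyme, measured 27, 7, 17.1 and 3.22 RPM with siVPS4A+B#1, 12.4, 17.7, 13.2 and 18 RPM in NT and 30.8, 33.8, 27.1, 33.9 and 28.6 RPM with siCTRL#1. The siVPS4A+B#1 libraries spread widely around the NT level and all lay below siCTRL#1, where UBE2L6 was 2.8-fold higher (log2 of siVPS4A+B#1 against siCTRL#1 −1.49 ± 0.3 SE, adjusted p = 0.00013). USP18, the protease that removes ISG15 and restrains receptor signalling, measured 15.6, 11.5, 11.1 and 14.6 RPM with siVPS4A+B#2, 13.1, 17.2, 12.5 and 11.4 RPM with siVPS4A+B#1 and 21.2, 16.6, 25.7, 26.6 and 21.5 RPM with siCTRL#1. In siVPS4A+B#1 1 library overlapped siCTRL#1. USP18 was lower than siCTRL#1 with both pairs, 1.62-fold with siVPS4A+B#1 (adjusted p = 0.000466) and 1.67-fold with siVPS4A+B#2 (adjusted p = 0.000171). Against NT, at 12.5, 12.2, 15.8 and 13.5 RPM, neither USP18 nor UBE2L6 was called with either pair. Higher levels than in NT were called with siVPS4B#1 for UBE2L6 (1.95-fold, adjusted p = 0.0124, lost without NT replicate 1 at 0.0628) and USP18 (1.66-fold, adjusted p = 0.000349), and with siVPS4B#2 for UBE2L6 (2.32-fold, adjusted p = 0.00286). The ubiquitin ligase HERC6 was higher with siVPS4B#1, at 7.41 RPM on average against 4.34 RPM with siCTRL#1 (1.7-fold, adjusted p = 0.00389) and 3.63 RPM in NT (1.82-fold, adjusted p = 0.00081). TRIM21 was called only with siVPS4A+B#2 against NT (1.62-fold, adjusted p = 0.00867), and TRIM25 in none of the 15 comparisons of depletions and controls.

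The IFIT proteins bind viral RNA and block its translation. IFIT5 (NM_012420) was higher than siCTRL#1 in every depletion but siVPS4A#2. It stood at 7.24, 6.25, 8.64, 7.24 and 6.53 RPM with siCTRL#1 and at 36, 24.6, 22.4 and 46.3 RPM with siVPS4A+B#2. With siVPS4A+B#1 it stood at 15.6, 12.3, 10.9 and 9.82 RPM, with siVPS4A#1 at 12.3, 18.9, 13.7 and 13.8 RPM, and with siVPS4A#2 at 6.99, 7.66, 4.75 and 7.17 RPM. The siVPS4A+B#2 libraries lay above all others, and the siVPS4A#2 libraries overlapped the controls. IFIT5 rose 3.86-fold with siVPS4A+B#2 (log2 1.95 ± 0.2 SE, adjusted p = 1.81e-10, limma) and 1.93-fold with siVPS4A#1 (adjusted p = 0.000143). The changes of 1.69-fold with siVPS4B#2 and 1.57-fold with siVPS4A+B#1 lost their calls without replicate 1 of the respective depletion (adjusted p = 0.051 and 0.0567), and the latter also without siCTRL#1 replicate 2 (1.49-fold).

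IFIT1 (NM_001548) was lower than siCTRL#1 with siVPS4A+B#1 and was not called with siVPS4A+B#2. Its levels with siCTRL#1 were 10.8, 13.9, 14.1, 11 and 13.1 RPM, and in NT 2.56, 4.39, 5.59 and 5.78 RPM. With siVPS4A+B#1 they were 3.59, 6.08, 4.29 and 3.37 RPM, and with siVPS4A+B#2 24.5, 15.2, 10.4 and 24.3 RPM. The siVPS4A+B#1 libraries overlapped those of NT and lay below every siCTRL#1 library. IFIT1 was 2.49-fold lower with siVPS4A+B#1 than with siCTRL#1 (log2 −1.32 ± 0.21 SE, adjusted p = 2.72e-06), and siCTRL#1 was itself 2.41-fold above NT (adjusted p = 2.82e-05). It was 3.55-fold higher with siVPS4A+B#2 than with siVPS4A+B#1 (adjusted p = 1.11e-08). Single depletion gave 18.9, 20.1, 19.4 and 27.5 RPM with siVPS4A#1 (1.67-fold over siCTRL#1, adjusted p = 0.00346) and 29.1, 23.8, 15.3 and 20.3 RPM with siVPS4B#2 (1.73-fold, adjusted p = 0.00828). The call with siVPS4B#2 was lost without siVPS4B#2 replicate 1 (adjusted p = 0.0669).

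IFIT2 stood at 10.3, 16.2, 16 and 14.2 RPM with siVPS4A#1 and at 15.6, 12.8, 16.8 and 22 RPM with siVPS4A+B#2, against 5.05, 5.29, 6.1, 6.52 and 6.15 RPM with siCTRL#1. These 2 conditions share the duplex siVPS4A#1 and both lay above all control libraries, by 2.2-fold (adjusted p = 1.27e-05) and 2.59-fold (adjusted p = 4.81e-07). IFIT3 gave 33 reads in all with siVPS4A#1, 27 with siVPS4A+B#2, 19 with siCTRL#1 and 4 in NT. The ratio of its pooled levels with siVPS4A+B#2 to NT was 8.43 (95% Clopper-Pearson interval 2.94 to 33.1, counting error only). The ratio to siCTRL#1 was 1.93 (1.04 to 3.68), and IFIT3 was not called with siVPS4A+B#2 against siCTRL#1. Of the IFITM proteins, which restrict virus entry at membranes, IFITM3 was higher with siVPS4B#1, at 16.6, 13.4, 17.2 and 13.1 RPM against 8.59, 6.5, 9.82, 8.98 and 7.57 RPM with siCTRL#1 (1.72-fold, adjusted p = 0.00488). IFITM2 was called in none of the 15 comparisons.

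The oligoadenylate synthetases make the second messenger that activates RNase L. OAS3 (NM_006187) was lower with siVPS4A#1 and higher with the pair that contains the same duplex. It stood at 25.5, 12.7, 30.3 and 26.5 RPM with siVPS4A#1, at 87.8, 87.1, 62.6 and 130 RPM with siVPS4A+B#2 and at 35.2, 58, 39.5, 34.8 and 59 RPM with siCTRL#1. Neither depletion overlapped siCTRL#1. The log2 changes were −0.94 ± 0.21 SE (1.92-fold lower, adjusted p = 0.000381) with siVPS4A#1 and 1.08 ± 0.21 (2.11-fold higher, adjusted p = 6.92e-05) with siVPS4A+B#2. With siCTRL#2, OAS3 measured 27.3, 18.4, 17.3 and 28.4 RPM, also below every siCTRL#1 library.

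OAS1 was near the limit of detection in most libraries, at 0.337, 0.481, 0.677, 0.29 and 0.473 RPM with siCTRL#1, where 3 reads correspond to at most 0.589 RPM. With siVPS4A+B#2 it measured 5.58, 4.48, 2.56 and 5.53 RPM, above every control. The fit gave 3.69-fold over siCTRL#1 (adjusted p = 2.7e-10), and the ratio of pooled levels, 116 reads against 17, was 9.28 (95% interval 5.55 to 16.5). The change of OAS1 with siVPS4A#1 (1.51-fold, adjusted p = 0.0122) fell to 1.42-fold (adjusted p = 0.0598) without siVPS4A#1 replicate 4, and to 1.45 to 1.49-fold without siVPS4A#1 replicate 3 or any of siCTRL#1 replicates 1, 2 and 4. OASL, a related protein that enhances RIG-I signalling, stood at 4.91, 4.06, 5.92 and 5.29 RPM with siVPS4A+B#2 and at 4.48, 4.26, 5.2 and 4.28 RPM with siVPS4A#1, above the 0.505, 2.65, 0.847, 1.3 and 2.55 RPM with siCTRL#1. OASL rose 2.59-fold with siVPS4A+B#2 (adjusted p = 1.71e-06), 2.28-fold with siVPS4A#1 (1.89e-05) and 2.07-fold with siVPS4B#2 (0.000831).

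RIGI (NM_014314) encodes RIG-I, the sensor of short double-stranded and 5′-triphosphate RNA. Its levels were 58.9, 60.2, 54.9 and 52.8 RPM with siVPS4A+B#2, 27.6, 22.5, 39.5 and 45.7 RPM with siVPS4A+B#1 and 32, 50.3, 36.4 and 37.5 RPM with siVPS4A#1, against 23.4, 23.3, 15.1, 20.3 and 18.2 RPM with siCTRL#1. With siVPS4A#2 they were 17.6, 15.1, 13.8 and 12.6 RPM. The siVPS4A+B#2 and siVPS4A#1 libraries all lay above siCTRL#1, while 1 siVPS4A+B#1 library overlapped it. With siCTRL#2 RIGI stood at 31.2, 28.3, 34.3 and 19.3 RPM, which overlapped siVPS4A#1 and siVPS4A+B#1 but not siVPS4A+B#2. It was not called with siCTRL#2 against siCTRL#1 or NT. Against siCTRL#1, RIGI rose 2.73-fold with siVPS4A+B#2 (log2 1.45 ± 0.18 SE, adjusted p = 9.56e-09) and 1.91-fold with siVPS4A#1 (adjusted p = 3.22e-05). The 1.59-fold change with siVPS4A+B#1 (adjusted p = 0.00242) fell under the fold threshold without siCTRL#1 replicate 3 (1.45-fold) or siVPS4A+B#1 replicate 4 (1.39-fold).

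Of the 7 RNA sensors and RNA-binding enzymes on the list, 5 were higher with siVPS4A+B#2 than with siCTRL#1, where 12.8% of all genes were. Besides RIGI these were IFIH1, which encodes the long-RNA sensor MDA5 (3.75 against 1.5 RPM on average, 1.83-fold, adjusted p = 0.000612), the helicase DDX60 (13.7 against 4.89 RPM, 2.5-fold, 6.27e-07), EIF2AK2, the kinase PKR that halts translation (111 against 66.9 RPM, 1.74-fold, 9.45e-05), and the exonuclease ISG20. ISG20 measured 11.3, 11.9, 7.85 and 13.9 RPM with siVPS4A+B#2 and 24.8, 10.8, 9.54 and 10.8 RPM with siVPS4A+B#1, against 5.22, 3.61, 6.43, 5.36 and 3.78 RPM with siCTRL#1. It was above siCTRL#1 in every library of both pairs, by 2.08-fold (adjusted p = 0.000331) and 2.41-fold (adjusted p = 4.38e-05). In EIF2AK2, siVPS4A+B#2 replicate 3, at 70.9 RPM, fell within the siCTRL#1 range, and the other 3 libraries stood at 121 to 131 RPM. In the other controls EIF2AK2 stood at 74.9, 87, 102 and 103 RPM (NT) and at 82.8 to 91.2 RPM (siCTRL#2). EIF2AK2 was not called with siVPS4A+B#2 against NT. DHX58, which encodes LGP2, averaged at most 0.402 RPM in any condition, and ADAR, the RNA-editing enzyme, was not called in any of the 15 comparisons.

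Among transcription factors, IRF9 (NM_006084), the DNA-binding subunit of ISGF3, was higher than siCTRL#1 in every depletion but siVPS4A#2. It stood at 30.1, 23.3, 19.9 and 43.9 RPM with siVPS4A+B#2 and at 23.2, 23.1, 17.4 and 10.7 RPM with siVPS4A+B#1, against 4.04, 12.3, 9.31, 7.38 and 12.2 RPM with siCTRL#1. In single depletions it stood at 23.1, 11.8, 29.9 and 33.2 RPM with siVPS4A#1, 23.2, 21.1, 14.9 and 21 RPM with siVPS4B#1 and 25.4, 17.7, 12.3 and 18.3 RPM with siVPS4B#2. In siVPS4A+B#1 and siVPS4A#1 1 library each overlapped siCTRL#1. The changes were 3.34-fold with siVPS4A+B#2 (log2 1.74 ± 0.25 SE, adjusted p = 2.16e-07, limma), 2.49-fold with siVPS4A#1 (2.69e-05), 2.4-fold with siVPS4B#1 (0.000155), and 2.17-fold with siVPS4A+B#1 (0.00037) and with siVPS4B#2 (0.00167).

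IRF7, which amplifies interferon transcription, was higher with the pairs, at 54.1, 54.9, 37.1 and 80.3 RPM with siVPS4A+B#2 and 42, 40.9, 28.4 and 33.4 RPM with siVPS4A+B#1, against 22.1, 18.5, 17.9, 20.9 and 20.5 RPM with siCTRL#1. No library of either pair overlapped siCTRL#1, and the changes were 2.72-fold (adjusted p = 1.97e-07) and 1.8-fold (adjusted p = 0.000997). IRF1, a factor induced strongly by type II interferon, measured 37.4, 36.5, 36.4 and 30.1 RPM with siVPS4A+B#2 and 53.3, 20.1, 30.5 and 22.6 RPM with siVPS4A+B#1, against 16.9, 13.5, 15 and 13.3 RPM in NT and 21.4, 16.2, 23.2, 25.6 and 17.2 RPM with siCTRL#1. Both pairs lay above NT, by 2.3-fold (adjusted p = 6.94e-07) and 1.94-fold (adjusted p = 3.63e-05), whereas only siVPS4A+B#2 was called against siCTRL#1 (1.63-fold, adjusted p = 0.000995). No single depletion was called for IRF1 in either comparison.

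**Figure D3:**
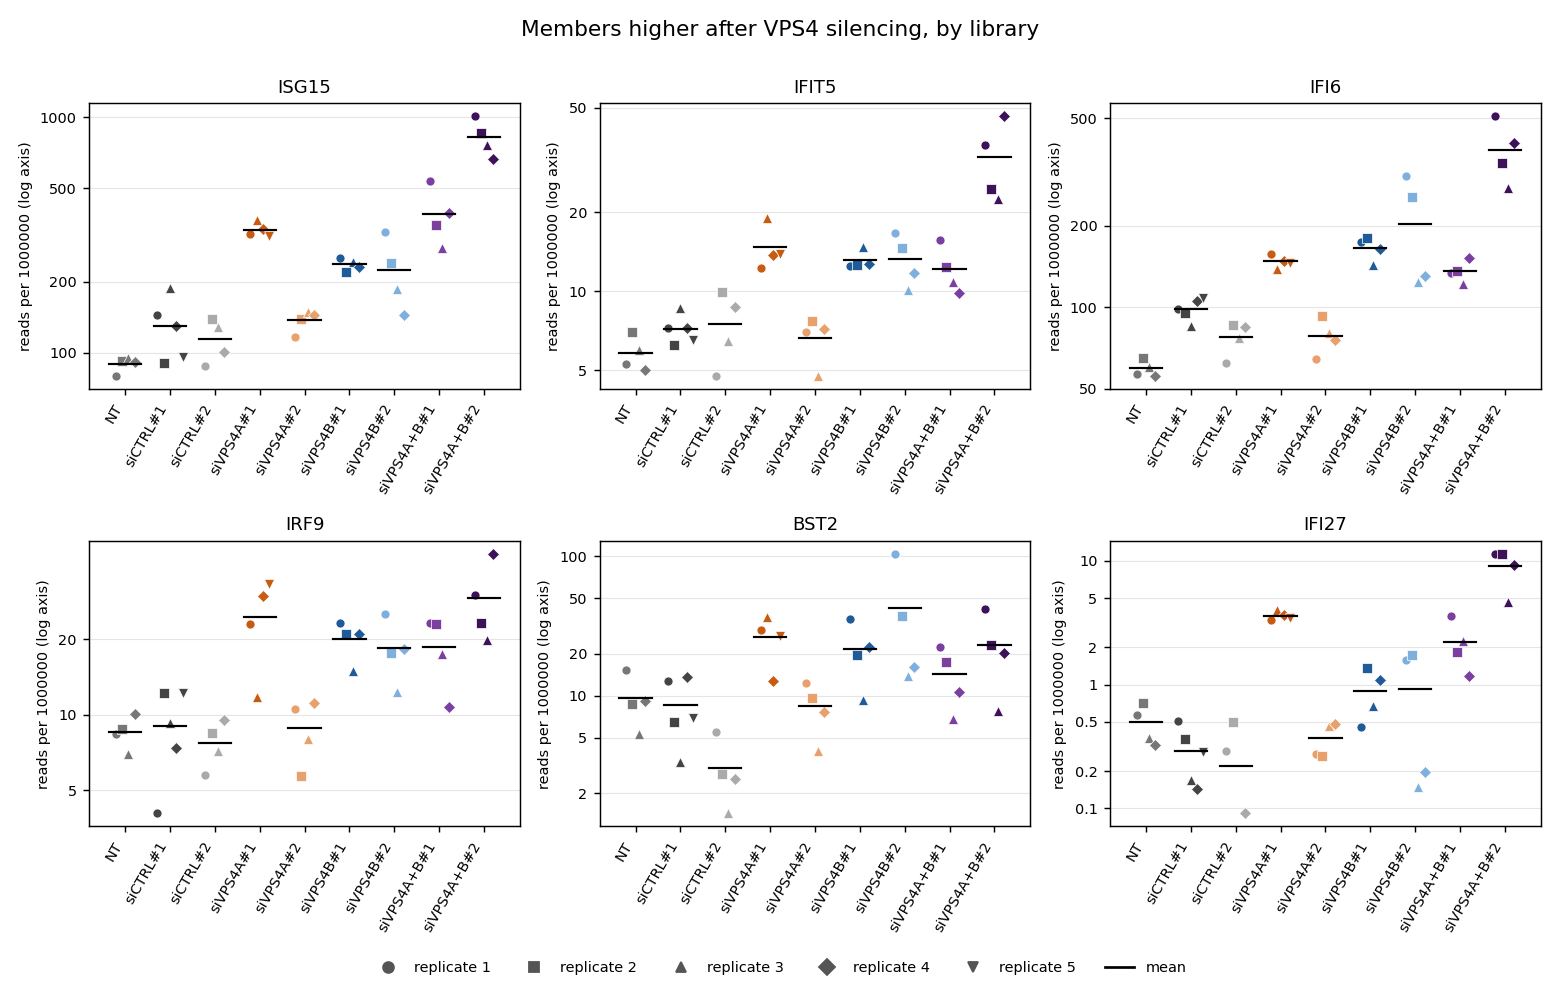
Levels of ISG15, IFIT5, IFI6, IRF9, BST2 and IFI27 in each library, in RPM on a log axis, with 1 point per library, a bar at the mean and the 9 conditions along the horizontal axis. The siVPS4A+B#2 libraries of ISG15 sit between 667 and 1008 RPM, above all others, and IFI27 in siCTRL#2 replicate 3, at 0 RPM, cannot be drawn on this axis.

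PSMB9 (NM_002800), a catalytic subunit of the immunoproteasome, went the other way from most members. It stood at 26.8, 23.3, 26.6, 29.2 and 21.4 RPM with siCTRL#1, at 11.5, 15.5, 16.3 and 14.9 RPM in NT and at 9.28, 8.9, 9.62 and 8.06 RPM with siVPS4A#1. With siVPS4A+B#1 it stood at 19.5, 14.8, 9.66 and 9.38 RPM and with siVPS4A+B#2 at 22.7, 11.7, 16.3 and 14.3 RPM. All siVPS4A#1 libraries lay below those of siCTRL#1 and NT. PSMB9 was lower than siCTRL#1 by 2.58-fold with siVPS4A#1 (log2 −1.37 ± 0.18 SE, adjusted p = 7.76e-08), 1.98-fold with siVPS4A+B#1 (4.52e-05), 1.81-fold with siVPS4B#1 (0.000546) and 1.62-fold with siVPS4A+B#2 (0.00203). The last fell to 1.4-fold without siVPS4A+B#2 replicate 2. Against NT none of these 4 was called, and siVPS4B#2 was 2.01-fold higher (adjusted p = 9.71e-05). The neighbouring subunit gene PSMB8 averaged at most 0.629 RPM in any condition and was not called.

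Thus UBE2L6, USP18, IFIT1 and PSMB9 were each higher with siCTRL#1 than in NT and lower with siVPS4A+B#1 than with siCTRL#1, and none of these 4 was called with siVPS4A+B#1 against NT. Both comparisons use the siCTRL#1 libraries. The pairs contain no siCTRL#1, so the absence of that duplex and the depletion of both paralogs cannot be told apart in comparisons of a pair with siCTRL#1.

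Among the remaining effectors, IFI6 (NM_022873), a mitochondrial and endoplasmic reticulum protein that protects cells from apoptosis, stood at 508, 340, 275 and 405 RPM with siVPS4A+B#2, against 98.5, 95.2, 85.5, 106 and 108 RPM with siCTRL#1 and 56.8, 64.9, 60 and 55.8 RPM in NT. Other depletions gave 158, 139, 148 and 146 RPM with siVPS4A#1, 174, 181, 143 and 164 RPM with siVPS4B#1 and 306, 256, 124 and 130 RPM with siVPS4B#2. It stood at 134, 136, 122 and 152 RPM with siVPS4A+B#1. The libraries of these 5 depletions all lay above every control, while siVPS4A#2, at 64.2, 93.1, 80.5 and 76 RPM, overlapped both NT and siCTRL#1. IFI6 rose 3.8-fold with siVPS4A+B#2 (log2 1.92 ± 0.17 SE, adjusted p = 4.71e-12), 1.93-fold with siVPS4B#2 (0.000158) and 1.69-fold with siVPS4B#1 (0.000848). The 1.52-fold change with siVPS4A#1 (adjusted p = 0.00333) was 1.49-fold without the replicate block, without siCTRL#1 replicate 2 or without siVPS4A#1 replicate 3. The siVPS4A+B#1 pair was not called against siCTRL#1 (1.39-fold, adjusted p = 0.0258). Against NT the change was 6.2-fold with siVPS4A+B#2 (adjusted p = 1.13e-15) and 2.26-fold with siVPS4A+B#1 (adjusted p = 6.38e-07).

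IFI27 (NM_005532), a small mitochondrial protein, was close to absent in controls. It stood at 0.505, 0.361, 0.169, 0.145 and 0.284 RPM with siCTRL#1, that is 1 to 3 reads in each library. With siVPS4A+B#2 it measured 11.3, 11.3, 4.64 and 9.26 RPM, with siVPS4A#1 3.31, 4.01, 3.65 and 3.42 RPM and with siVPS4A+B#1 3.59, 1.82, 2.27 and 1.17 RPM. All 12 of these libraries lay above every control library. The ratio of pooled levels to siCTRL#1 was 27.9 with siVPS4A+B#2 (226 reads against 11, 95% interval 15.3 to 56.8), 12.6 with siVPS4A#1 (124 reads, 6.8 to 25.9) and 6.59 with siVPS4A+B#1 (62 reads, 3.44 to 13.9). The fitted log2 changes were 2.9 ± 0.21 SE (adjusted p = 2.61e-14), 1.89 ± 0.21 (9.55e-10) and 1.25 ± 0.21 (7.91e-06).

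BST2 (NM_004335), or tetherin, holds budding enveloped viruses at the cell surface, a step at which ESCRT-III also acts. It stood at 12.8, 6.5, 3.39, 13.8 and 6.91 RPM with siCTRL#1, at 104, 37.5, 13.8 and 16.1 RPM with siVPS4B#2, at 29.5, 36.7, 12.7 and 27 RPM with siVPS4A#1 and at 42.1, 23.1, 7.85 and 20.2 RPM with siVPS4A+B#2. Replicate 3 was the lowest library of each condition except siVPS4A#1, where replicate 4 was, and in siVPS4A#1 and siVPS4A+B#2 1 library each overlapped siCTRL#1. BST2 rose 3.59-fold with siVPS4B#2 (log2 1.85 ± 0.29 SE, adjusted p = 2.41e-05), 2.99-fold with siVPS4A#1 (2.15e-05), 2.37-fold with siVPS4A+B#2 (0.000507) and 2.33-fold with siVPS4B#1 (0.00161). The change with siVPS4B#1 did not pass without the replicate block (adjusted p = 0.0505), nor did those with siVPS4B#1 and siVPS4A+B#2 against NT (0.0935 and 0.0701).

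IFI35 was higher with siVPS4B#1, at 51.4, 33.4, 55.4 and 44.6 RPM, and with siVPS4A+B#2, at 57.2, 47.4, 40.8 and 52.5 RPM, than with siCTRL#1, at 31.1, 15.8, 25.2, 29.5 and 19.2 RPM. Neither overlapped siCTRL#1, and the changes were 1.85-fold (adjusted p = 0.000518) and 2.0-fold (adjusted p = 3.95e-05). Its 1.55-fold change with siVPS4A+B#1 (adjusted p = 0.00868) was lost without siVPS4A+B#1 replicate 1 (1.39-fold, adjusted p = 0.069) and was 1.41 to 1.49-fold without siVPS4A+B#1 replicate 2, siCTRL#1 replicate 2 or siCTRL#1 replicate 5. IFI44 gave 70 reads with siVPS4A+B#2 and 19 with siCTRL#1, a ratio of pooled levels of 5.01 (95% interval 2.98 to 8.81).

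SP100 and PML are scaffold proteins of the nuclear bodies that repress viral genomes. SP100 stood at 36.5, 52.3, 40.2 and 52.2 RPM with siVPS4A+B#2, at 39.9, 37.7, 32.9 and 36.4 RPM with siVPS4A#1 and at 16.5, 18.5, 12.3 and 11.4 RPM with siVPS4B#2, against 17.3, 13, 11.2, 15.3 and 10.9 RPM with siCTRL#1. SP100 rose over siCTRL#1 3.11-fold with siVPS4A+B#2 (adjusted p = 1.19e-09), 2.64-fold with siVPS4A#1 (3.04e-08), 1.92-fold with siVPS4B#1 (0.000137) and 1.87-fold with siVPS4A+B#1 (0.000117), and only the siVPS4B#2 libraries listed here overlapped siCTRL#1. Its level in NT was 20.2, 18.9, 18 and 17.7 RPM. Against NT, SP100 was called with siVPS4A+B#2 and siVPS4A#1 but not with siVPS4B#1 or siVPS4A+B#1. PML was higher than siCTRL#1 with siVPS4A+B#2 (2.24-fold, adjusted p = 0.00042) and siVPS4A#1 (1.89-fold, adjusted p = 0.00462), the latter in 3 of the 4 shared batches. Its 1.82-fold change with siVPS4A+B#1 (adjusted p = 0.00922) was lost without siVPS4A+B#1 replicate 2 (adjusted p = 0.0768) and without the replicate block (0.0796). Against NT, at 7.83, 15.8, 14 and 15.9 RPM, PML was called only with siVPS4A+B#2 (log2 0.69, adjusted p = 0.0366, limma). That call did not pass with DESeq2 or without the replicate block. The 1.57-fold change of PARP9 with siVPS4A+B#2 (adjusted p = 0.00447) was 1.41 to 1.49-fold without siCTRL#1 replicate 3, siCTRL#1 replicate 4 or siVPS4A+B#2 replicate 4.

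LGALS3BP, a secreted glycoprotein, split the siVPS4A+B#1 libraries, which stood at 950, 158, 552 and 48.8 RPM, while siCTRL#1 stood at 675, 572, 547, 670 and 558 RPM. Replicates 2 and 4 lay far below all controls and replicate 1 above siCTRL#1. The call of a 2.3-fold lower level (adjusted p = 0.0107, limma) was not made by DESeq2 (adjusted p = 0.257) or edgeR (0.152), and without siVPS4A+B#1 replicate 4 the log2 change was −0.38 (adjusted p = 0.289). With siVPS4A+B#2 the libraries stood at 913, 760, 399 and 908 RPM and LGALS3BP was not called. In all, 7 members were called in none of the 15 comparisons of depletions and controls, namely TRIM25, IFITM2, DHX58, ADAR, PSMB8, MX1 and PARP14. MX1, a GTPase against influenza virus and a common marker of interferon signalling, was therefore among those without a detected change. Its condition means ran from 1.06 RPM with siVPS4A+B#2 (1.18, 0.854, 1.12 and 1.08 RPM) to 1.82 RPM in NT (2.99, 0.712, 1.62 and 1.96 RPM). It was thus lowest where the set as a whole stood highest. At so low a level the log2(RPM + 1) scale understates changes in either direction.

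**Figure D4:**
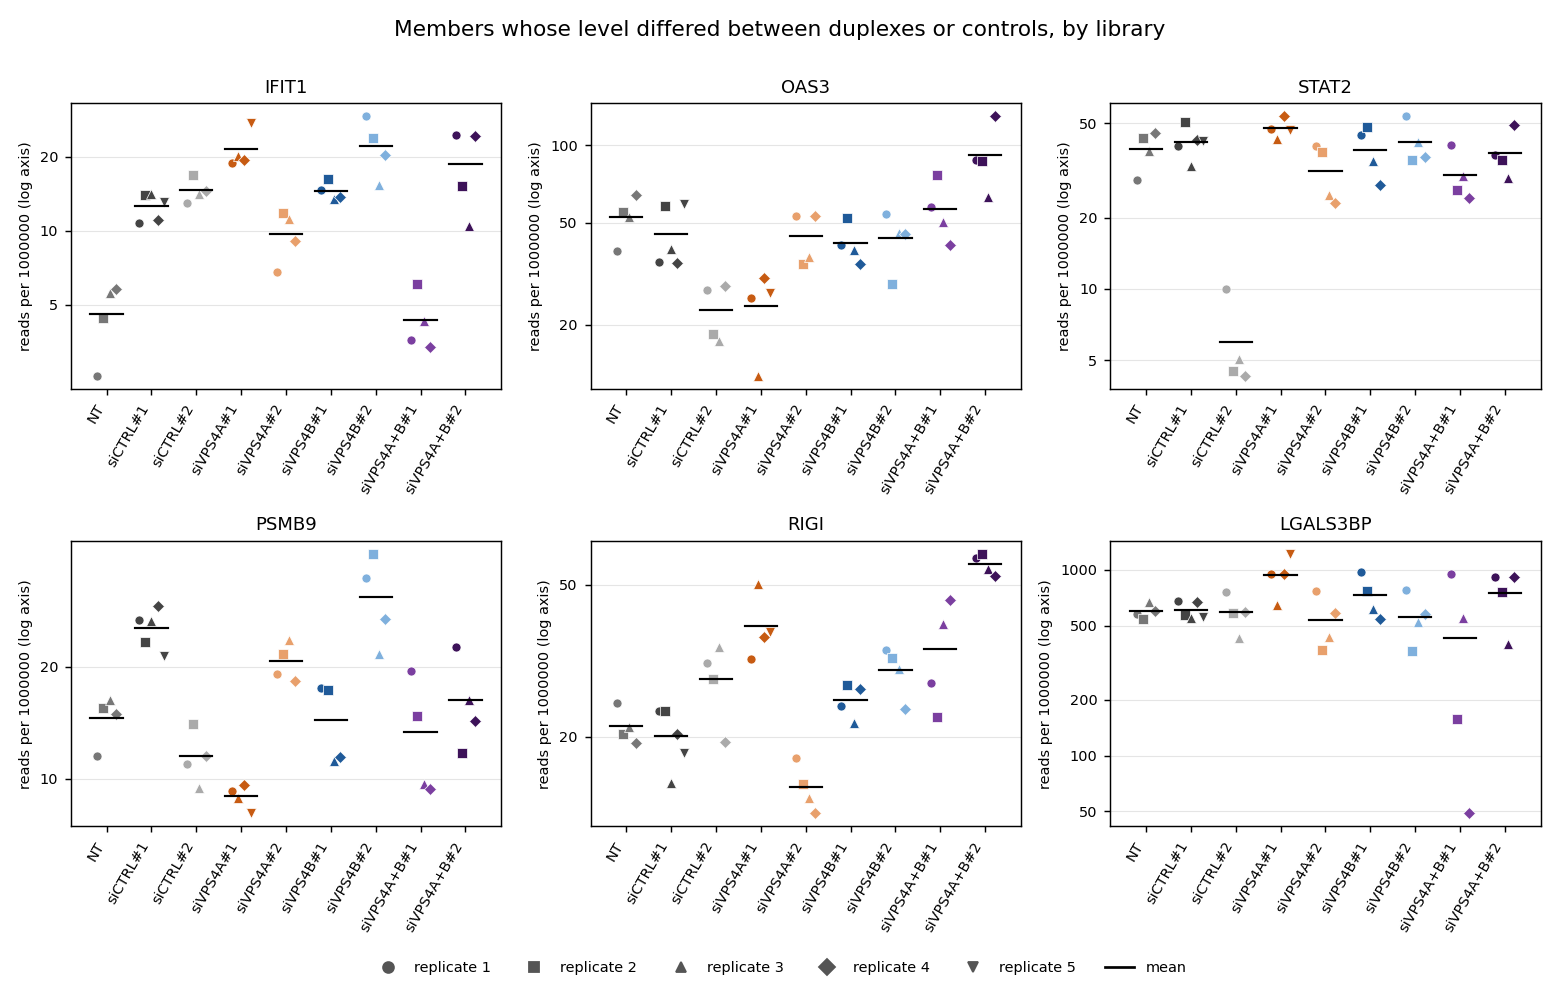
Levels of IFIT1, OAS3, STAT2, PSMB9, RIGI and LGALS3BP in each library, in RPM on a log axis, with 1 point per library, a bar at the mean and the 9 conditions along the horizontal axis. IFIT1 sits between 3.37 and 6.08 RPM with siVPS4A+B#1 and between 10.4 and 24.5 RPM with siVPS4A+B#2, and STAT2 sits between 4.29 and 9.95 RPM with siCTRL#2.

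A stricter rule asked for a call in the same direction with both duplexes or pairs, against both siCTRL#1 and NT. For VPS4A no member passed (0.00792% of all genes did), which follows from the absence of calls with siVPS4A#2 against siCTRL#1. For VPS4B 5 members passed, all higher, namely ISG15, IFIT5, IRF9, IFI6 and BST2 (0.483% of all genes), and without siVPS4B#2 replicate 1 there were 3. For VPS4A+B 8 members passed, all higher, namely ISG15, IFIT5, RIGI, ISG20, IRF7, IRF9, IFI27 and IFI35 (3.96% of all genes). Without siCTRL#1 replicate 2 there were 6. The rule also needs RIGI with siVPS4A+B#1 against NT (log2 0.6). That change was 1.3 to 1.49-fold without NT replicate 2, NT replicate 4, siVPS4A+B#1 replicate 3 or siVPS4A+B#1 replicate 4.

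The duplexes to the same target were then compared directly, comparisons added after the values above were seen. With siVPS4A#1, 17 members were higher than with siVPS4A#2 (9.92% of all genes) and 2, OAS3 and PSMB9, were lower (12.3%). The largest was IFI27 (log2 1.82 ± 0.23 SE, adjusted p = 2.17e-08, limma), followed by BST2, SP100 and RIGI, which were 2.97-fold, 2.79-fold and 2.57-fold higher. With siVPS4B#2 against siVPS4B#1, 3 members were higher (IFIT2, DDX60 and PSMB9, 7.25% of all genes) and 2 lower (IFITM3 and SP100, 7.89%). These 5 were 3 without siVPS4B#2 replicate 2. With siVPS4A+B#2 against siVPS4A+B#1, 19 members were higher (7.53% of all genes) and none lower. The largest of these were OAS1 (3.97-fold, adjusted p = 3.92e-10), IFIT1 (3.55-fold), IFIT2 (3.43-fold, adjusted p = 1.16e-08) and IFI27 (3.13-fold). The 2 pairs also differed in residual VPS4A, at 19.96 RPM with siVPS4A+B#1 and 5.03 RPM with siVPS4A+B#2. Whether this bears on the members was not tested, and it cannot be told apart from the different duplexes of the pairs.

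Each pair was compared with its own single duplexes, also after the values were seen. With siVPS4A+B#2, 13 members were higher than with siVPS4A#1 (8.55% of all genes), led by OAS3 (4.06-fold, adjusted p = 8.99e-09), and 16 were higher than with siVPS4B#2 (11.8%), led by IFI27 (5.48-fold) and ISG15 (3.79-fold, adjusted p = 1.22e-10). ISG15, IFIT5, OAS1, OAS3, DDX60, ISG20, IRF1, IRF7, IFI6, IFI27 and IFI44 were higher than with either single duplex, in comparisons that share the siVPS4A+B#2 libraries. PSMB9 was lower than with siVPS4B#2 (13.9% of all genes). With siVPS4A+B#1, 11 members were higher (11.4%) and 4 lower (12.1%) than with siVPS4A#2, while against siVPS4B#1 5 were higher (4.85%) and 6 lower (5.04%), the lower ones being UBE2L6, USP18, HERC6, IFIT1, IFITM3 and LGALS3BP. The total of 11 in this last comparison was 6 without siVPS4A+B#1 replicate 1. The single depletions contain siCTRL#1 and the pairs do not.

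Whether a pair differed from the sum of its single effects on the log2 scale was tested as an interaction. For siVPS4A+B#1, 3 members passed (7.69% of the members, against 6.2% of all genes). IFIT1 was lower than the sum (−1.25 ± 0.3 SE, adjusted p = 0.00568), and IRF1 (1.07 ± 0.25, adjusted p = 0.00529) and RIGI (0.81 ± 0.25, adjusted p = 0.0439) were higher. For siVPS4A+B#2, 9 members passed (23.1% of the members, against 18.3% of all genes). In both pairs the share of members was close to that of all genes, so the counts do not set the members apart. OAS3 (1.99 ± 0.3, adjusted p = 5.62e-06), IRF1 (1.54 ± 0.25, 1.55e-05), IFI44, ISG20, DDX60 and OAS1 were higher than the sum (6 members, 9.64% of all genes), and BST2 (−2.18 ± 0.41, 0.000148), IFIT1 (−1.02 ± 0.29, 0.0109) and OASL were lower (3 members, 8.63%). IRF1 was higher and IFIT1 lower than the sum in both pairs, which share the siCTRL#1 libraries. For the second pair, IFI44 and OAS1 were not called by DESeq2 (adjusted p = 0.0624 and 0.551), edgeR (0.0698 and 0.51) or with a pseudocount of 0.1 (0.0524 and 0.409), and edgeR did not call OASL (0.058). Without the replicate block ISG20 (0.082) and, with siVPS4A+B#1, RIGI (0.0589) did not pass. With the left-out library siVPS4A#1 replicate 2 included, IFIT1 passed in neither pair (0.0963 with siVPS4A+B#1 and 0.362 with siVPS4A+B#2), nor did RIGI (0.09), OASL (0.654) or ISG20 (0.186). Several of these calls also rested on single libraries. RIGI lost its call in 14 of the fits that left out 1 of the 37 libraries (adjusted p up to 0.186), OASL in 10 (up to 0.125), OAS1 in 8 (up to 0.107), ISG20 in 6 (up to 0.0941) and DDX60 in 4 (up to 0.0654, without siVPS4A+B#2 replicate 1, siVPS4B#2 replicate 2, siCTRL#1 replicate 5 or siVPS4A#1 replicate 5). The 3 members for siVPS4A+B#1 were 5 without siVPS4A+B#1 replicate 1. For the other members the sum of the single effects was not shown to be exceeded or missed.

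The members were correlated with the rest of the set to differing extents across libraries. Over the 37 libraries, the correlation of a member with the mean of the others had a median of 0.5 and was below 0 in 4 of the 39 members, and within conditions its median was 0.39. IFI6 (0.92) and IFIT5 (0.9) were most like the rest of the set. These libraries share conditions and batches, so the values are descriptive.

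Ligands, receptors and other genes of the pathway outside the set were counted in the same fit. Of 8 ligand genes listed, only IFNE, an epithelial type I interferon, was in the table, at 1.32 RPM with siVPS4A#1 and 0.911 RPM with siVPS4A+B#2 against 0.173 RPM with siCTRL#1, where 3 reads correspond to at most 0.589 RPM. Of 6 receptor genes, none was higher with siVPS4A+B#2 than with siCTRL#1 (12.8% of all genes were), and 4 were with siVPS4A+B#1 (IFNGR1, IFNGR2, IFNLR1 and IL10RB, against 10.6% of all genes). Against NT, 2 receptor genes were higher with siVPS4A+B#1 (IFNLR1 and IL10RB, against 12.6%). Among kinases of the pathway, JAK1 was lower with siVPS4A+B#2. STING1, the adaptor of DNA sensing, was higher with siVPS4B#1 (34.6 against 19.0 RPM, 1.82-fold, adjusted p = 0.000592, limma) and siVPS4B#2 (1.58-fold, adjusted p = 0.0145) and lower with siVPS4A+B#2 (9.13 RPM, 1.98-fold, adjusted p = 3.57e-05). Of 14 further interferon-induced genes in the table, 4 were higher with siVPS4A+B#2 than with siCTRL#1 (12.8% of all genes), among them the peptide transporter TAP1 (2.26-fold, adjusted p = 1.95e-11), and none was lower. In siVPS4A+B#1, 2 were higher (TAP1 and SP110, against 10.6% of all genes) and 2 lower (CMPK2 and PLSCR1, against 11.5%). SOCS3, a feedback inhibitor of cytokine signalling, was 2.18-fold higher with siCTRL#1 than in NT (adjusted p = 0.000611) and 3.07-fold lower with siVPS4A+B#2 than with siCTRL#1 (adjusted p = 2.98e-07).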

How the data were processed

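Values from 38 libraries of HCT116 cells were used. The authors aligned Ion AmpliSeq reads to the hg19 transcript panel, counted them with HTSeq (version 0.6.0 per the submitters' processing notes, which also name DESeq2 1.18.1) and deposited, per gene and library, a signal equal to the share of all reads. Since every value was a whole multiple of 1 read (100% of low values), the read counts were recovered. Library totals were 5090666 to 11035293 reads, so 3 reads correspond to at most 0.589 RPM, and intervals cover counting error only.

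Symbols were assigned to 12471 genes from RefSeq and to 4 from the study's annotation, and 152 had none. Counts were scaled by TMM (factors 0.881 to 1.099) and tested as log2(RPM + 1) with limma 3.58.1 (R 4.3.3, intensity trend, 37 libraries, all conditions in 1 fit, replicate number as block), with Benjamini-Hochberg adjustment over 12627 genes. The block follows the labels' batch letters. Deviations from condition means correlated at 0.165 on average in libraries of the same number and at −0.077 otherwise. The test was checked on simulated data. Of the 39 members, 37 had at least 1 RPM in at least 4 libraries. No filter was used in the main fit. Alternatives were no block, the left-out library, DESeq2 1.42.0, edgeR 4.0.16, other size factors, a pseudocount of 0.1, that filter, and leaving out replicates or single libraries. The 41 members, the gene lists and the tests were chosen with earlier results of these data known. All members are accounted for, and those called are given with values. Results for 1 item are not reported here.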

Additional observations from a re-analysis of the deposited data

Results flagged for a closer look

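Some libraries stood apart from the others of their condition by Dixon's criterion. Of 339 pairs of a member and a condition examined, 20 did so (5.9%), spread over 17 libraries, and chance gives about 1 in 20.

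High values in the depletions were IFIT1 at 27.5 RPM in siVPS4A#1 replicate 5, IFIT5 at 14.7 RPM in siVPS4B#1 replicate 3, TRIM21 at 11.3 RPM in siVPS4A+B#1 replicate 3, and IRF7 at 55.9 RPM in siVPS4B#2 replicate 1 (others 21.9 to 25.1 RPM). ISG20 was high in replicate 1 of siVPS4B#1 (14.6 RPM, others 4.48 to 5.73) and of siVPS4A+B#1 (24.8 RPM, others 9.54 to 10.8). IFIH1 was high in siVPS4A#1 replicate 4 (3.1 RPM) and siVPS4A#2 replicate 1 (2.21 RPM).

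Low values in the depletions were EIF2AK2 at 65.3 RPM in siVPS4B#2 replicate 2 and at 70.9 RPM in siVPS4A+B#2 replicate 3, PARP14 at 19.7 RPM in the same library, IRF1 at 30.1 RPM in siVPS4A+B#2 replicate 4, IFITM3 at 8.05 RPM in siVPS4A#2 replicate 2 and OAS1 at 0.133 RPM in siVPS4B#1 replicate 3. Among controls, STAT2 was high in siCTRL#2 replicate 1 (9.95 RPM, others 4.29 to 5.03) and DHX58 in siCTRL#2 replicate 4 (0.365 RPM). Low control values were HERC6 at 2.86 RPM in siCTRL#2 replicate 2, IFITM2 at 1.32 RPM and IRF1 at 10.9 RPM in siCTRL#2 replicate 3, and IFI44 at 0.168 RPM in siCTRL#1 replicate 1.

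The interaction test on the log2 scale was passed by IFIT1 (−1.25 with siVPS4A+B#1 and −1.02 with siVPS4A+B#2), IRF1 (1.07 and 1.54), RIGI (0.81 with siVPS4A+B#1) and, with siVPS4A+B#2, OAS3 (1.99), BST2 (−2.18), IFI44 (1.1), ISG20 (1.01), DDX60 (0.89), OASL (−0.86) and OAS1 (0.83). These were 7.69% of the members with siVPS4A+B#1 (6.2% of all genes) and 23.1% with siVPS4A+B#2 (18.3% of all genes). The calls of IFIT1, RIGI, IFI44, ISG20, DDX60, OASL and OAS1 were lost in some of the other fits described above. Duplexes to the same target also differed: 19 of the 39 members between siVPS4A#1 and siVPS4A#2 (48.7%, against 22.2% of all genes) and 19 between siVPS4A+B#2 and siVPS4A+B#1 (48.7%, against 17.4%). Between siVPS4B#2 and siVPS4B#1 5 members differed (12.8%), a share no larger than that of all genes (15.1%).

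The library left out of all comparisons, siVPS4A#1 replicate 2, held 23 members with over 3 reads (4.48 RPM at its depth), and 11 of these lay above every control library, as did 25.5% of all genes with over 3 reads in it (2254 of 8854). ISG15 was at 354.4 RPM, IFI6 at 181.3 RPM and SP100 at 46.93 RPM, while LGALS3BP was at 29.13 RPM against 653.5 to 1222 RPM in the other siVPS4A#1 libraries.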

How the results depend on the processing

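No call changed direction under any alternative, and of 279 single calls DESeq2's size factors and the filter on low values ended none, a pseudocount of 0.1 ended 7, edgeR 8, DESeq2 12 and the fit without the replicate block 14, for which the cause was not tested. Without the pairing by replicate number the count moved from 15 to 13 members with siVPS4A#1 and stayed at 24 with siVPS4A+B#2 (against siCTRL#1), and no count moved by over 1.5 times. Including the library siVPS4A#1 replicate 2, whose depth is low, ended 37 calls, and counts fell to 1 for the interaction of siVPS4A+B#1 and 7 for siVPS4A+B#1 against siVPS4B#1. DESeq2 called 5 members with siVPS4A#2 against NT. Leaving out all libraries of a replicate number ended 6 to 39 calls. It gave 2 to 10 members for siVPS4B#2 against siCTRL#1, 1 to 4 and 5 to 7 for the interactions of siVPS4A+B#1 and siVPS4A+B#2 (the latter up to 9 without single libraries), 2 to 6 for the VPS4B rule over 4 comparisons, 3 to 6 for siVPS4B#2 against siVPS4B#1 and 5 to 11 for siVPS4A+B#1 against siVPS4B#1. These fits have fewer libraries. Leaving out single libraries, chosen after seeing the data, moved counts by over 1.5 times in 4 cases: siVPS4B#2 replicate 1 (siVPS4B#2 against siCTRL#1 4, VPS4B rule 3), siVPS4A#2 replicate 1 (siVPS4A#2 against NT 5), siVPS4A+B#1 replicate 1 (its interaction 5, against siVPS4B#1 6) and siVPS4B#2 replicate 2 (siVPS4B#2 against siVPS4B#1 3). Members below about 0.589 RPM rest on at most 3 reads a library.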
